A study of Mus musculus with 9 samples.

Results

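Chronic MPTP was compared with saline in mouse striatum on 6 of the 9 arrays of the series: 3 arrays of animals sampled 8 weeks after chronic treatment and 3 arrays of saline controls, chosen by their labels and not by any measured value. Chronic treatment was 4 mg/kg per day for 20 days, a total of 80 mg/kg. Saline was given to the controls as 4 injections at intervals of 2 h, and their tissue was taken at 1 week. The other 3 arrays come from acute MPTP, injected 4 times at 20 mg/kg, 2 h apart, with the same total dose, and sampled at 1 week. Because the chronic arrays were sampled at 8 weeks and the controls at 1 week, the drug, the injection schedule, the time of sampling and anything handled along with them cannot be told apart. Sex, age and strain were not found in the labels. Whether each array stands for its own animal is not stated in the labels, and p-values therefore reflect only how these samples vary, which may be technical.

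MPTP is converted in the brain to a toxin that is taken up by dopamine neurons through their transporter and blocks complex I of the mitochondrial respiratory chain. The axons of those neurons run to the striatum, where they contact projection neurons of the direct pathway, which carry the D1 receptor, and of the indirect pathway, which carry the D2 receptor. Both neuron types answer synaptic activity, dopamine and cAMP with fast transcription of immediate early genes, many of which encode transcription factors of the Fos, Egr and Nr4a families. In striatal tissue the axons bring little mRNA from the midbrain cell bodies.

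Values are log2 intensities of probe sets, and a difference of 1 is a doubling. Differences are chronic minus control, with the standard error (SE) of a limma fit with 3 arrays per group. None of 16335 probe sets passed the Benjamini-Hochberg threshold of 0.05 in limma (smallest adjusted p = 0.876), and 900 (5.51%) had an unadjusted p under 0.05. If no probe set differed, 817 would be met on average, and the spread of such a count depends on how probe sets are correlated. The smallest adjusted p was 0.255 with the replicate number as a block, and 2128 probe sets then had an unadjusted p under 0.05. No gene below is therefore called different from control in the fit of all arrays. Genes are described by their values, by whether the 3 chronic and 3 control values overlap, and by whether all 3 same-numbered differences had one sign, which held above 0 for 13.4% of all probe sets and below 0 for 14.8%. The median difference over all probe sets was -0.01, and 46.7% lay above 0.

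The tissue label held on all 6 arrays for markers of striatal projection neurons: Penk, which encodes the enkephalin precursor, lay between 13.16 and 13.56, and Ppp1r1b, which encodes DARPP-32, between 11.44 and 12.31. Genes of neighbouring tissue separated the control arrays from each other. A list's level on an array is the mean over its genes of the deviation from that gene's mean over the 9 arrays. For 13 cerebral cortex genes this was 1.10 on control 1, -0.44 on control 2 and -0.31 on control 3, against -0.73 to -0.34 on the chronic arrays. For 20 genes of thalamus, septum and hypothalamus it was 1.17 on control 3, -0.24 on control 1 and -0.06 on control 2, against -0.49 to 0.13 on the chronic arrays. Choroid plexus genes stood at 0.77 on control 3 and between -0.56 and 0.02 on the other 5 arrays. Control 2 was thus the only control array inside the chronic range for all 3 neighbouring tissues. For part of the genes and lists below, values against control 2 alone are given beside the group difference. This alternative was added after the values were seen and has no spread of its own. In bulk tissue, fewer cells of a type and less RNA per cell cannot be told apart.

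**Figure D1:**
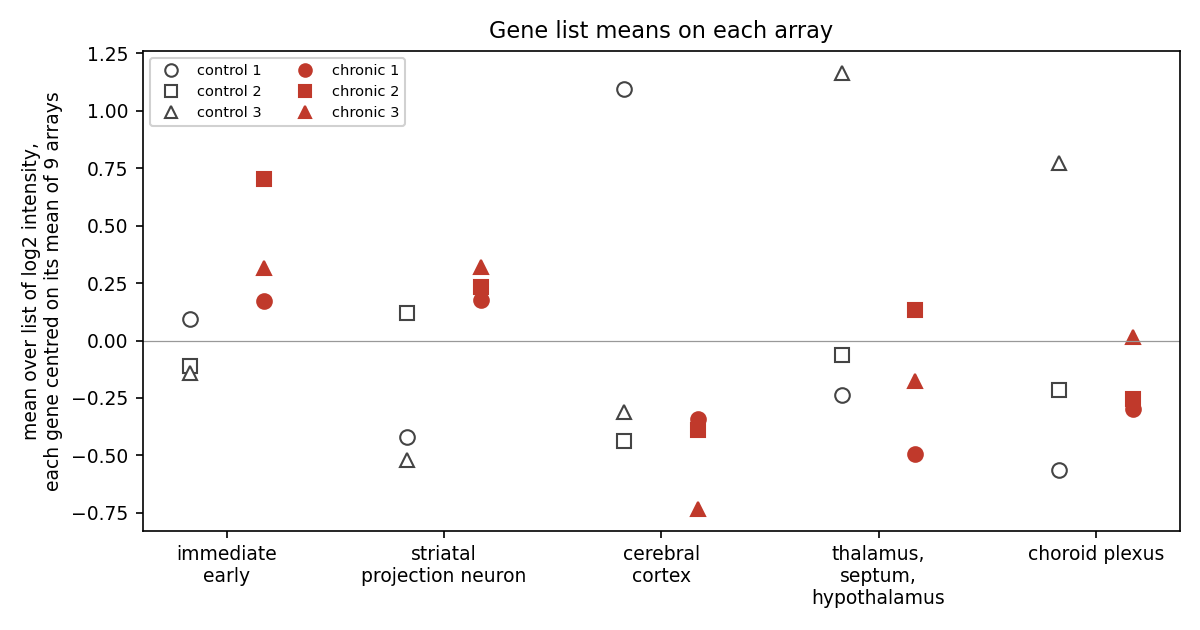
Level of 5 gene lists (horizontal axis) on the 3 saline arrays (open symbols) and 3 chronic MPTP arrays (filled symbols), as the mean deviation of a list's genes from their mean over 9 arrays (log2, vertical axis). Cortex genes reach 1.10 on control 1 and thalamus genes 1.17 on control 3, while immediate early genes are higher on the 3 chronic arrays (0.17 to 0.70) than on the 3 control arrays (-0.14 to 0.10).

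Immediate early genes stood higher, as a list level, on each chronic array than on each control array, control 2 included. Of 19 listed genes, 18 were above the intensity filter, and Ier2 was below it. Of the 18, 15 lay above control, with a median difference of 0.49. In limma, 9 of them were higher with an unadjusted p under 0.05, against 2.85% of all probe sets in that direction. All 3 chronic values lay above all 3 control values for 8, against 2.88% of all probe sets. With the replicate number as a block 10 were higher at an unadjusted p under 0.05, against 6.56% of all probe sets. None was lower at that level in either fit. The list was chosen with these values known, so the counts describe these arrays.

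Nr4a1 encodes an orphan nuclear receptor induced within minutes by activity and by cAMP, and in striatum it is also known to respond to loss of dopamine signalling. Its values were 9.99, 9.94 and 9.96 on controls 1, 2 and 3, and 10.63, 11.31 and 11.18 on chronic arrays 1, 2 and 3. The controls were nearly equal and every chronic array was higher, chronic 1 least so. The difference was 1.08 ± 0.16 (SE), or 2.11-fold, with a 95% confidence interval of 0.73 to 1.43 and an adjusted p of 0.876 in limma. Leaving out 1 of the 6 arrays at a time gave 0.94 to 1.28, and without chronic 1 Nr4a1 passed the threshold in limma (1.28, adjusted p = 0.00478). As chronic 1 was the chronic array nearest to the controls, leaving it out raises the difference and narrows the spread by construction. Against control 2 alone the difference was 1.10. With the cortex and thalamus list levels as covariates it was 1.22.

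The other Nr4a receptors did not share one pattern. Nr4a3 stood at 8.12, 7.66 and 7.92 on the controls and at 8.50, 9.46 and 8.70 on the chronic arrays, a difference of 0.99 ± 0.34. Nr4a2 stood at 10.11, 8.66 and 7.90 on the controls and at 8.91, 9.11 and 7.57 on the chronic arrays, a difference of -0.36 ± 0.99. For Nr4a3 the groups did not overlap, with chronic 2 highest. For Nr4a2 they overlapped throughout, and its highest value was on control 1, the array high in cortex genes.

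Among the Egr zinc finger factors, Egr2 showed the largest difference. Egr2 values were 7.75, 7.74 and 7.90 on the controls and 8.12, 9.13 and 9.16 on the chronic arrays, a difference of 1.01 ± 0.24. The controls lay close together, chronic 1 was just above them, and chronic 2 and 3 were far above. Without chronic 1, Egr2 was the other gene that passed the threshold in limma (1.35, adjusted p = 0.00478). The limit given for Nr4a1 holds here too, since the array left out was the one nearest to the controls. Egr3 was 9.29, 9.73 and 9.24 against 9.76, 10.36 and 10.07 (0.64 ± 0.19), and Egr4 was 8.36, 8.24 and 8.22 against 8.66, 9.22 and 8.55 (0.54 ± 0.17). Neither overlapped between groups, although for Egr3 chronic 1 was only just above control 2. Egr1, the most widely used marker of the family, was 10.59, 10.59 and 10.71 against 10.67, 11.34 and 11.38, a difference of 0.50 ± 0.17. Its chronic 1 value lay within the control range. Nab2, a corepressor that Egr factors induce and that binds them in turn, was 9.86, 9.94 and 9.85 against 10.15, 10.90 and 10.70, a difference of 0.70 ± 0.17. As for Egr2, all chronic arrays were above all controls and chronic 1 was nearest to them.

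The Fos and Jun families, whose products pair to form AP-1, were split. Fosl2 was 7.97, 8.16 and 8.13 on the controls and 8.53, 9.75 and 8.92 on the chronic arrays (0.98 ± 0.26). Fosb, whose stable splice product builds up in striatum under repeated stimulation, was 8.03, 8.07 and 8.02 against 8.35, 9.49 and 8.79 (0.84 ± 0.24). Both were higher on every chronic array, chronic 2 most. Fos itself was 7.23, 7.04 and 7.66 against 7.17, 7.89 and 7.02, a difference of 0.05 ± 0.23, with the groups overlapping. Junb differed by 0.27 ± 0.13, Fosl1 by 0.10 ± 0.09 and Jun by -0.06 ± 0.16, and their groups overlapped too. A probe set for Fosb here does not separate the splice forms.

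Of the effector genes in the list, Arc, a synaptic protein that controls glutamate receptor uptake, was 9.69, 9.38 and 9.35 against 9.85, 10.15 and 9.89. All 3 chronic arrays lay above the controls, and the difference was 0.49 ± 0.12. Npas4, a factor tied to calcium entry, differed by 0.56 ± 0.49, Homer1, a postsynaptic scaffold, by 0.35 ± 0.28, Ier5 by 0.23 ± 0.25 and Btg2, an antiproliferative factor, by -0.11 ± 0.27. None of these 4 was free of overlap.

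**Figure D2:**
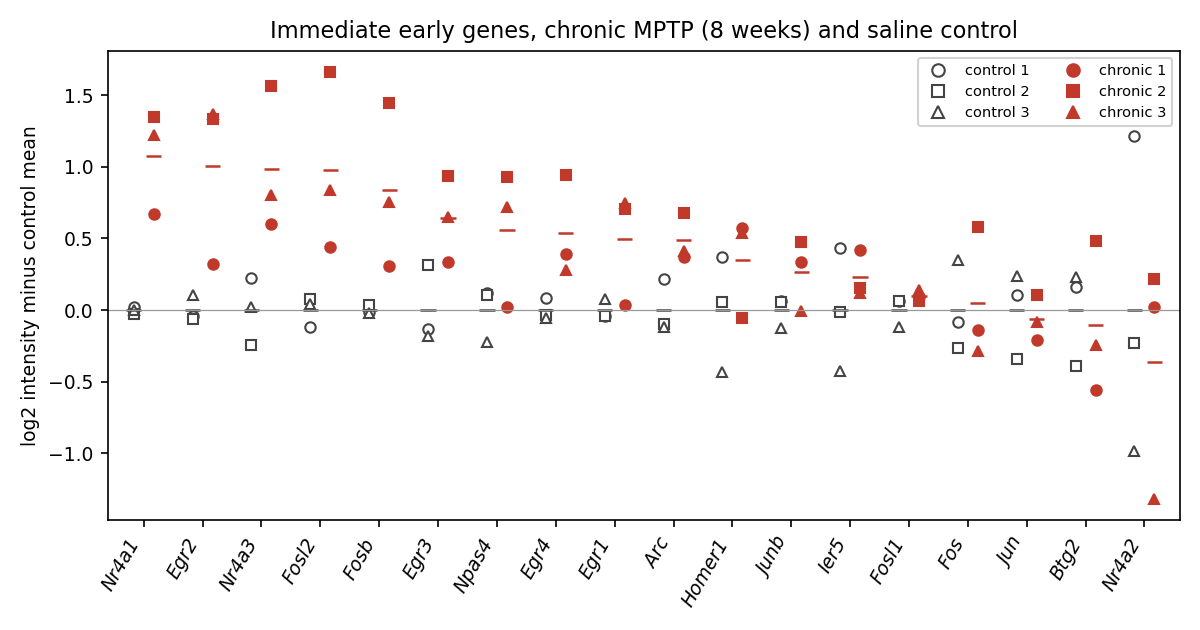
Log2 intensity minus each gene's control mean (vertical axis) for the 18 tested immediate early genes (horizontal axis) on the 3 control arrays (open symbols) and 3 chronic MPTP arrays (filled symbols), with bars at the group means. The 3 chronic values of Nr4a1, whose mean lies 1.08 above the controls, are clear of the control values, while Fos and Nr4a2 overlap between groups.

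The size of the immediate early differences depended on the pair of arrays. The list median was 0.18 for chronic 1 minus control 1, 0.80 for pair 2 and 0.61 for pair 3. Pair 2 gave the largest value, and chronic 2 had the highest list level of the chronic arrays (0.70, against 0.17 on chronic 1 and 0.32 on chronic 3). Neither array of pair 2 reached the cortex level of control 1 or the thalamus and choroid plexus levels of control 3. What part neighbouring tissue had in the immediate early differences was not tested. Against control 2 alone the median over the list was 0.39 and 17 of 18 genes lay above 0. All 3 chronic arrays were above control 2 for 11 of the 18, against 12.8% of all probe sets. With the cortex and thalamus levels as covariates the median was 0.58, with 18 of 18 above 0.

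The promoters of these genes are shown because the group is known for control by cAMP response element binding protein, and the differing members could be read beside those that did not differ. RefSeq (GRCm38.p6) windows of 250 bases before the transcription start were at hand for 14 of the 18 genes. TGACG, the core of the cAMP response element, was searched on both strands, with TGACG and its complement CGTCA in capitals below.
Nr4a1, chr15:101266596-101266845, plus strand: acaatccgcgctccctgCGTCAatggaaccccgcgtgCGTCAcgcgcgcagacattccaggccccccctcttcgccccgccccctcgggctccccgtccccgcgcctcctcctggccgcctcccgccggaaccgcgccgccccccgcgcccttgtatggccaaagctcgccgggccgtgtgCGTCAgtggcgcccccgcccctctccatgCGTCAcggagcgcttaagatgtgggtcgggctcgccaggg
Nr4a3, chr4:48045055-48045304, plus strand: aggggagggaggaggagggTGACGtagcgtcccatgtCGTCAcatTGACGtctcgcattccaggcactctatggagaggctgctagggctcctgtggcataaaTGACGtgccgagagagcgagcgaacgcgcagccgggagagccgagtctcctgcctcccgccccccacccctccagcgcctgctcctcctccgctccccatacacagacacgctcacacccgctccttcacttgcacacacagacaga
Fosb, chr7:19310046-19310295, minus strand: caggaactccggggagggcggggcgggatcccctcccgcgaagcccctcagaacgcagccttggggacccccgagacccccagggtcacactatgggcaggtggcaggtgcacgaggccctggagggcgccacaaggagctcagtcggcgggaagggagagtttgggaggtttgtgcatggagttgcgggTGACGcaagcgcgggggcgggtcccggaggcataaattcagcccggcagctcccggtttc
Egr4, chr6:85513590-85513839, minus strand: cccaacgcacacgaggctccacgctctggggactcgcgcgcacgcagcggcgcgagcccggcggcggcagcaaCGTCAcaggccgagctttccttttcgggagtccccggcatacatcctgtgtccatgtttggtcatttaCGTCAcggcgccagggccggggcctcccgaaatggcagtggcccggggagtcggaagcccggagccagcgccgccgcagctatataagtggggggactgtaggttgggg
The Nr4a1 window held 4 matches between 40 and 233 bases before the start, and the Nr4a3 window 4 between 147 and 231. The Fosb window held 1, at 60 bases, and the Egr4 window 2, between 109 and 177. A match in any window of the gene was found for 11 of the 14 genes, against 19.8% of 27025 genes. By window the share was 17.8% of 32851 RefSeq windows of the same length. The full palindrome TGACGTCA, which contains the core on both strands, was found for 1 of the 14 genes (Btg2) against 1.77% of genes. The serum response factor CArG box was found for 1 (Egr2) against 1.62% of genes. The core did not follow the differences: Fos, Btg2 and Nr4a2, with differences of 0.05, -0.11 and -0.36, held it, and Fosl2, at 0.98, did not hold it in this window. A match of letters is no evidence of binding.

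Genes that follow activity more slowly, and phosphatases that switch off MAP kinase signalling, had smaller medians than the immediate early genes. Of 19 delayed effectors 13 lay above 0, with a median of 0.15. In limma 5 of the 19 were higher at an unadjusted p under 0.05 (2.85% of all probe sets), and for 4 the groups did not overlap (2.88%). Rgs2, a regulator that shortens G protein signalling, was 10.03, 10.18 and 9.98 against 10.38, 10.49 and 10.53 (0.41 ± 0.10). Tiparp, a poly-ADP-ribose polymerase, was 8.83, 8.52 and 8.99 against 9.41, 9.10 and 9.48 (0.55 ± 0.18), with pair differences of 0.58, 0.58 and 0.49. For both genes each chronic array lay above each control. Inhba, a subunit of activin, differed by 0.69 ± 0.22, but by only 0.03 in pair 2. Of 12 MAP kinase phosphatases and Sprouty-type inhibitors 9 lay above 0, with a median of 0.10, and for 3 the groups did not overlap (2.88% of all probe sets). Dusp14 was 10.26, 10.09 and 9.81 against 10.52, 10.67 and 10.84 (0.62 ± 0.16), with each chronic array clear of the controls. Spry2, a feedback inhibitor of growth factor receptors, was 8.62, 8.64 and 8.14 against 8.71, 8.80 and 9.06 (0.39 ± 0.16, and 0.23 without control 3). Dusp5 was 7.70, 7.58 and 7.64 against 7.71, 8.16 and 7.89 (0.28 ± 0.11, and 0.16 without chronic 2). Chronic 1 was only just above the highest control for Dusp5.

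Genes of striatal projection neurons were also higher on the chronic arrays, but mostly against controls 1 and 3. All 19 genes shared by both types of projection neuron lay above 0, with a median of 0.52, and 16 were higher at an unadjusted p under 0.05 in limma (2.85% of all probe sets). For 7 the groups did not overlap (2.88%). The list level was -0.42 on control 1, 0.12 on control 2 and -0.52 on control 3, against 0.18, 0.23 and 0.32 on the chronic arrays. Control 2 was thus close to the chronic arrays, and controls 1 and 3, which were high in genes of neighbouring tissue, were low. The median was 0.59 in pair 1, 0.84 in pair 3 and 0.09 in pair 2. Against control 2 alone it was 0.10, with 15 of 19 above 0. With the cortex and thalamus levels as covariates it was 0.15, with 19 of 19 above 0. All 3 chronic arrays were above control 2 for 7 of the 19 (36.8%), against 12.8% of all probe sets. The part that neighbouring tissue had in these differences was not tested beyond these values.

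Within the shared list, Pde10a, a phosphodiesterase of cAMP and cGMP, was 12.31, 12.71 and 12.03 against 12.93, 12.72 and 12.97 (0.52 ± 0.16). Scn4b, a sodium channel subunit, was 11.20, 12.24 and 10.79 against 12.03, 12.34 and 12.26 (0.80 ± 0.30). Ppp1r1b was 11.50, 12.20 and 11.44 against 12.13, 12.26 and 12.31 (0.52 ± 0.18). In all 3 genes control 2 stood with the chronic arrays, and against it alone the differences were 0.17, -0.03 and 0.03. The transcription factors Foxp1 and Rarb, at 0.50 ± 0.13 and 0.51 ± 0.14, did not overlap between groups and differed by 0.21 and 0.22 from control 2. Rasd2, the striatal GTPase Rhes, differed by 0.66 ± 0.20, and Actn2, a spine actinin, by 0.71 ± 0.22. Over the alternative fits their lowest differences were 0.13 and 0.20.

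The 2 dopamine receptors marked the 2 pathways. Drd2 was 10.88, 11.52 and 10.97 on the controls and 11.70, 12.01 and 11.94 on the chronic arrays, a difference of 0.76 ± 0.16. Drd1 was 10.10, 10.48 and 10.01 against 10.64, 10.61 and 11.12, a difference of 0.59 ± 0.17. Neither overlapped between groups, and control 2 was the highest control for both. Against control 2 alone Drd2 differed by 0.36 and Drd1 by 0.31. All 9 direct pathway genes lay above 0 (median 0.58, against control 2 alone 0.19), among them Slc35d3 (0.80 ± 0.22), Ebf1 (0.72 ± 0.22), the muscarinic receptor Chrm4 (0.64 ± 0.23) and the substance P precursor Tac1 (0.58 ± 0.25). The prodynorphin gene Pdyn differed by 0.34 ± 0.29. All 7 indirect pathway genes lay above 0 (median 0.34, against control 2 alone 0.11), among them the orphan receptors Gpr52 (0.74 ± 0.24) and Gpr6 (0.63 ± 0.24), while Penk differed by 0.23 ± 0.10. The substance P receptor Tacr1, of interneurons, differed by 0.67 ± 0.23.

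Cholinergic interneuron genes had a list level of -0.50 on control 1, 0.15 on control 2 and -0.02 on control 3, against 0.12 to 0.22 on the chronic arrays. Chat, the acetylcholine synthase, was 6.92, 7.81 and 7.24 against 8.10, 7.64 and 7.97 (0.58 ± 0.21), and the choline transporter Slc5a7 was 7.88, 8.99 and 8.34 against 9.11, 8.80 and 9.62 (0.77 ± 0.28). In both, control 2 lay within the chronic range, and pair 2 gave -0.17 and -0.19. Over the 9 tested genes of this list the median was 0.34, and it was -0.10 in pair 2.

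Groups did not overlap for 2.88% of probe sets on the higher and 3.67% on the lower side, and at 1.5-fold or more for 40 (0.245%) and 53 (0.324%). Of the 40, the 10 with the smallest unadjusted p were Nr4a1, Onecut2, Sv2c, Zswim6, Drd2, Impg1, Zfp385b, Nab2, Egr2 and Prima1. Onecut2, a homeobox transcription factor, was 7.98, 8.03 and 8.19 against 8.53, 8.81 and 8.90. Each chronic array was above each control, and the difference was 0.68 ± 0.11. It was 0.72 against control 2 alone and 0.73 with the covariates. Sv2c, a synaptic vesicle glycoprotein abundant in the basal ganglia, was 10.01, 10.48 and 9.90 against 10.81, 10.82 and 10.99 (0.74 ± 0.14, and 0.39 against control 2 alone). Zswim6 (0.70 ± 0.15), Zfp385b (0.60 ± 0.14), Prima1, which anchors acetylcholinesterase to membranes (0.76 ± 0.19), and Impg1, a matrix proteoglycan (0.81 ± 0.18), likewise did not overlap and had control 2 as their highest control.

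On the lower side the named genes were Slc6a7, Camk1, Adcyap1, Plcxd2, Chl1, Kcnc4, Epha5 and Syt13, beside 2 probe sets that the naming rule leaves out by the form of their symbols and that are given here after their values were seen. These are Snord57, a C/D box small nucleolar RNA, at 10.39, 10.89 and 10.55 against 9.96, 9.52 and 9.21 (-1.05 ± 0.25), and D630023F18Rik (-0.77 ± 0.16). Slc6a7, the proline transporter of glutamatergic terminals, was 8.99, 8.69 and 9.15 on the controls and 8.05, 7.92 and 8.12 on the chronic arrays. The groups did not overlap, and the difference was -0.91 ± 0.15. It was -0.66 against control 2 alone and -0.65 with the covariates. Adcyap1, which encodes the neuropeptide PACAP, was 7.97, 6.94 and 7.58 against 6.32, 6.36 and 6.25, a difference of -1.19 ± 0.23. Its chronic values were nearly equal but low, below the medians of those arrays (6.85 to 6.90). Control 2 was the lowest control, with -0.63 against it alone. Camk1, a calcium-dependent kinase, was 8.35, 8.08 and 8.35 against 7.67, 7.73 and 7.44 (-0.65 ± 0.12, and -0.47 against control 2 alone). The other 5 named genes ranged from -0.78 ± 0.19 for Syt13, a synaptotagmin, to -0.63 ± 0.15 for the ephrin receptor Epha5. They included the potassium channel Kcnc4 at -0.67 ± 0.16, the adhesion molecule Chl1 at -0.70 ± 0.16 and the phospholipase-domain gene Plcxd2 at -0.73 ± 0.15. Control 2 was the lowest control array for each of these 8 and for D630023F18Rik, but the highest for Snord57.

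**Figure D3:**
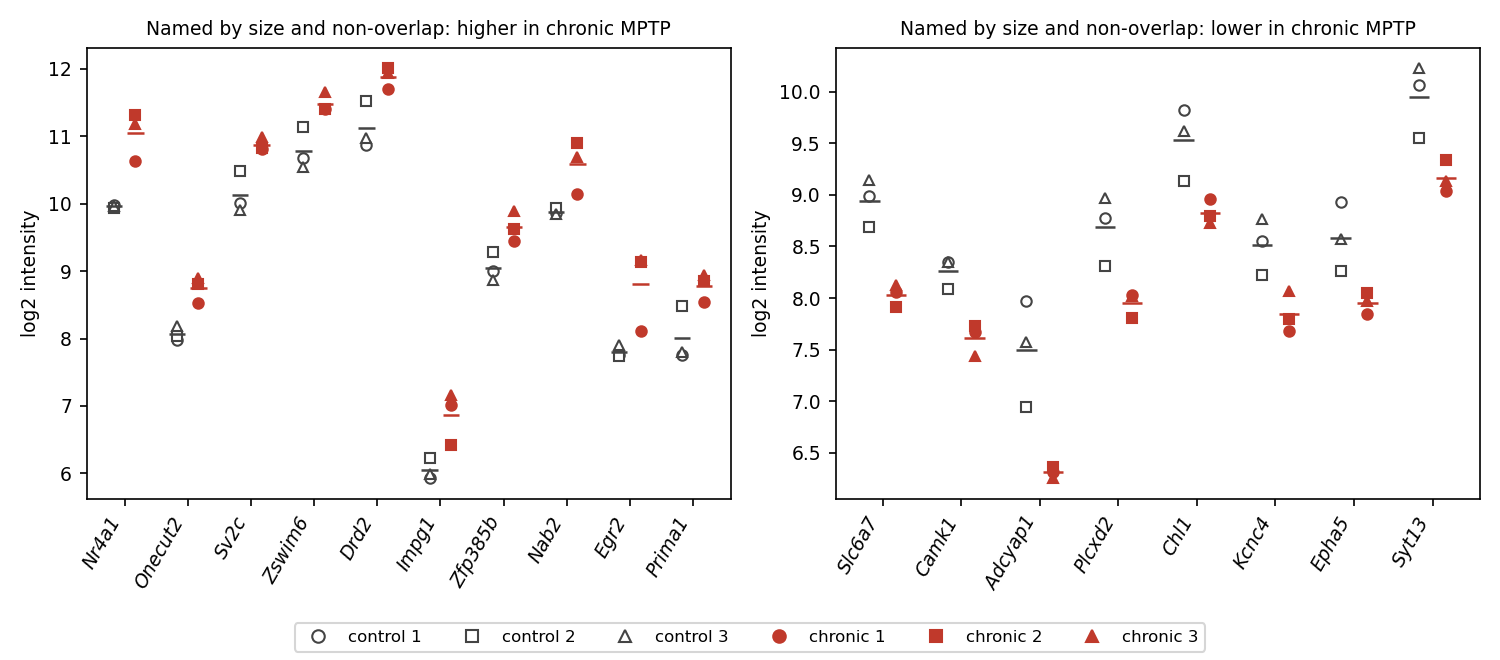
Log2 intensity (vertical axis) of the genes named by size and non-overlap, higher on the chronic arrays at left and lower at right, with 3 control arrays (open), 3 chronic arrays (filled) and bars at the group means. Control 2, the open square, is the control nearest to the chronic arrays for Drd2 and Sv2c at left and for all 8 genes at right, but not for Onecut2 or Egr2.

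A second set of genes was named by the paired fit with a replicate block, which asks for even differences between same-numbered arrays. On the higher side these were Mchr1, Nr4a1, Fgf11, Ppm1d, Foxo1 and Reep6. Mchr1, the receptor for melanin-concentrating hormone, had pair differences of 0.52, 0.64 and 0.73, and Ppm1d, a phosphatase induced by p53, of 0.36, 0.45 and 0.50. Both also had all chronic values above all control values. Fgf11 differed by 0.73 ± 0.20, the transcription factor Foxo1 by 0.57 ± 0.17 and Reep6 by 0.52 ± 0.23. On the lower side were Fabp3, Adcy8, Pakap, Slc6a7, Nrip3 and Slc17a6. Nrip3 had pair differences of -0.80, -0.85 and -0.88, and its difference was -0.84 ± 0.24 without the block. Fabp3, a fatty acid carrier, differed by -0.54 ± 0.17. Adcy8, a calcium-stimulated adenylyl cyclase, was 8.21, 8.26 and 9.10 against 7.69, 7.55 and 8.39 (-0.65 ± 0.31, and -0.36 to -0.90 leaving out 1 array). Pakap was 8.55, 9.21 and 9.30 against 8.17, 8.78 and 8.72 (-0.46 ± 0.25, and -0.27 to -0.70 leaving out 1 array). Both overlapped between groups: Adcy8 was high on array 3, and Pakap low on array 1, of each group. Slc17a6, the vesicular glutamate transporter of thalamic input neurons, was 7.19, 7.66 and 10.59 against 6.45, 6.42 and 8.51. It was lower in each pair, by -0.73, -1.24 and -2.08, yet the groups overlapped because array 3 was high in both. All of these had a block adjusted p of 0.255 in limma.

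Genes of dopamine synthesis, transport and breakdown showed no common direction. Of 13 tested 5 lay above 0, with a median of -0.09, and 0 had an unadjusted p under 0.05 in limma (5.51% of all probe sets). With the replicate block 1 was lower at that level (6.46% of all probe sets). That was Maoa, which breaks down monoamines (-0.19 ± 0.16). Th, the rate-limiting enzyme of dopamine synthesis, was 7.14, 8.51 and 8.28 on the controls and 7.48, 8.61 and 8.36 on the chronic arrays. Array 1 was the low one in both groups, and the difference was 0.17 ± 0.39. The dopamine transporter gene Slc6a3 was 6.62, 6.58 and 6.74 against 6.53, 6.68 and 6.45 (-0.09 ± 0.10). The vesicular transporter Slc18a2 was 6.64, 6.68 and 7.39 against 6.27, 6.79 and 5.99 (-0.55 ± 0.27), and Ddc, the decarboxylase, differed by -0.12 ± 0.23. All 4 overlapped between groups, and the high Slc18a2 value was on control 3. Nxph3, the neurexophilin that the title of the series names, was 8.08, 6.84 and 6.68 against 6.88, 7.0 and 6.78. Its difference of -0.31 ± 0.42 came from control 1, and against control 2 alone it was 0.05.

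Gdnf, a growth factor for dopamine neurons that striatal cells secrete, was 6.94, 6.93 and 6.99 on the controls and 7.39, 7.17 and 7.47 on the chronic arrays. The controls were nearly equal, and every chronic array was higher. The difference was 0.39 ± 0.11, and 0.42 against control 2 alone. The Gdnf signal was low: its mean over the 9 arrays was 7.09, below the median of 7.27 over probe sets with 1 symbol. Over the 19 neurotrophic factors and receptors tested, 8 lay above 0 and the median was -0.05. Ntrk3, the receptor of neurotrophin 3, had even pair differences of 0.30, 0.35 and 0.29.

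Respiratory chain and proteasome genes lay slightly below control, with medians smaller in size than those of the immediate early and projection neuron lists. Of 35 complex I genes 10 were above 0 (median -0.08), of 30 genes of complexes II to V 5 (median -0.09), and of 31 proteasome genes 5 (median -0.13). At an unadjusted p under 0.05 in limma 1, 0 and 2 of them were lower, and with the replicate block 4, 4 and 7, against 2.66% and 6.46% of all probe sets. Ndufv1, a core subunit of complex I, was 10.51, 10.51 and 10.52 against 10.44, 10.23 and 10.30 (-0.19 ± 0.08). Psmd4, a ubiquitin receptor of the proteasome, was 8.92, 9.09 and 8.98 against 8.84, 8.74 and 8.60 (-0.27 ± 0.10). In both genes each chronic array lay below each control. This held for 1 of the 35 complex I genes, 3 of the 30 of complexes II to V and 3 of the 31 proteasome genes, against 3.67% of all probe sets. Pair 2 gave the lowest medians for both respiratory chain lists (-0.24 for complex I and -0.23 for complexes II to V), and pair 1 gave 0.03 and -0.01. Against control 2 alone the medians were -0.16 for complex I, -0.13 for complexes II to V and -0.05 for the proteasome, and with the covariates -0.18, -0.18 and -0.15. All 3 chronic arrays lay below control 2 for 45.7% of the complex I genes, 43.3% of those of complexes II to V and 29.0% of the proteasome genes, against 18.9% of all probe sets. Control 2 had the highest complex I level of the controls (0.08, against 0.02 on control 1 and -0.05 on control 3). For complexes II to V and the proteasome control 1 was the highest control (0.07 and 0.12). Of 16 genes linked to Parkinson disease 10 lay below 0, with a median of -0.11, and 2 were lower without overlap (3.67% of all probe sets). These 2 included Dnajc6, which uncoats clathrin vesicles (-0.25 ± 0.10). Among the overlapping ones Park7, a redox-sensitive chaperone, differed by -0.38 ± 0.14 and the kinase gene Lrrk2 by 0.54 ± 0.19.

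Between the group means, glial gene lists had medians near that of all probe sets or, for microglia, slightly above it, but the microglial direction depended on the controls used. Of 17 microglial genes 14 lay above 0, with a median of 0.15, but at an unadjusted p under 0.05 in limma there were 0, with or without the replicate block, and the median in pair 2 was -0.21. Against control 2 alone the microglial median was -0.22, with 4 of 17 above 0. All 3 chronic arrays lay below control 2 for 58.8% of these genes, against 18.9% of all probe sets. With the cortex and thalamus levels as covariates the median was -0.12, with 2 of 17 above 0. Aif1, a marker of microglia, was 6.45, 6.44 and 6.18 against 6.45, 6.45 and 6.63 (0.15 ± 0.10). Gfap, the astrocyte filament that rises in gliosis, was 8.44, 8.96 and 9.19 against 8.89, 8.33 and 8.57 (-0.27 ± 0.22). Both overlapped between groups. The medians of 14 astrocyte and 17 oligodendrocyte genes were -0.06 and -0.01. Against control 2 alone they were -0.05 and -0.10, and with the covariates -0.12 and -0.21. For 3 of the 14 astrocyte genes the groups did not overlap, 2 higher and 1 lower, against 2.88% and 3.67% of all probe sets. The bicarbonate transporter Slc4a4 was 11.07, 11.39 and 11.39 against 11.68, 11.41 and 11.80 (0.35 ± 0.15), and the glutamate transporter Slc1a3 was 11.70, 11.74 and 12.10 against 11.47, 11.61 and 11.63 (-0.28 ± 0.13). Of 12 interferon response genes 8 lay above 0 (median 0.07), and of 10 chemokine and cytokine genes above the filter 9 did (median 0.06).

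**Figure D4:**
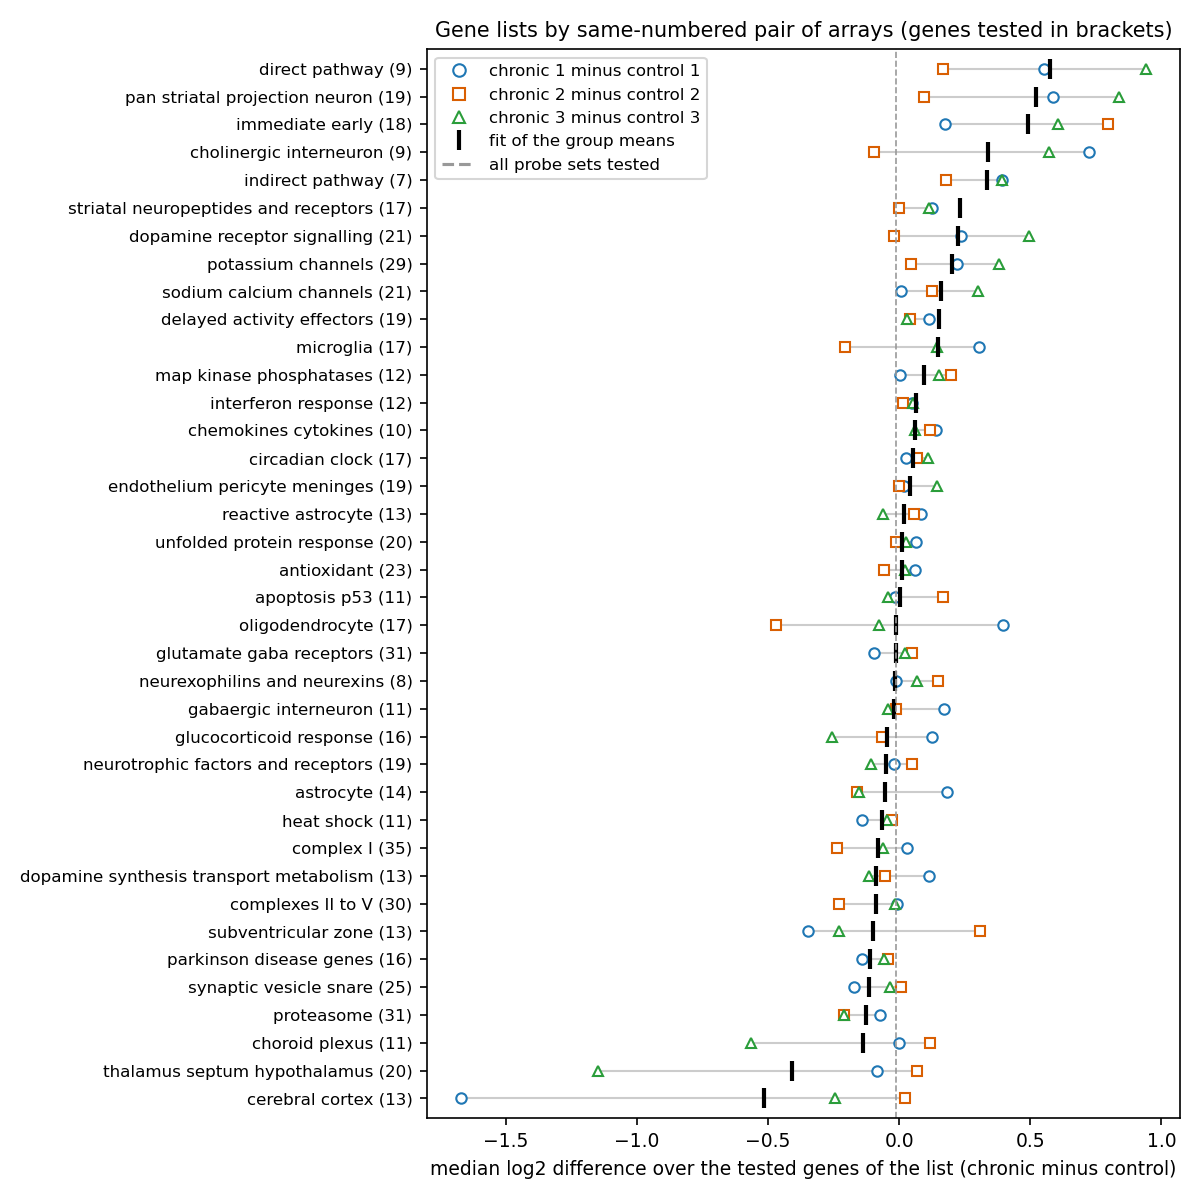
Median log2 difference of each gene list (horizontal axis, chronic minus control) in the 3 same-numbered pairs of arrays (open symbols) and between group means (black bars), with the number of genes tested in brackets. Immediate early genes have their largest median, 0.80, in pair 2, where the pan-striatal list stands at 0.09, and the cortex list reaches -1.67 in pair 1 and 0.02 in pair 2.

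Immediate early genes could also be set beside the acute arrays, which share the 1-week time and injection schedule with the controls. Nr4a1 was 8.57, 8.69 and 8.71 on the acute arrays, below all controls. The chronic minus acute difference was 2.38 ± 0.16, with an adjusted p of 0.00131 in limma. Arc was 8.71, 8.80 and 8.84 on the acute arrays, and its chronic minus acute difference was 1.18 ± 0.12, with an adjusted p of 0.0288 in limma. These were the only 2 probe sets past the threshold in that comparison (0.0122% of those tested). For both genes the 3 groups did not overlap, in the order acute, control, chronic.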

How the data were processed

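Striatal RNA of mice was hybridised to 9 single-colour Affymetrix arrays, 3 per group, grouped by the titles in the labels. The deposited values are log2 intensities of probe sets, read as log2 from the values themselves. How the authors corrected background, normalized and summarised was not given in the sources used here, and the values were used as deposited. The array medians lay between 6.85 and 6.90. Precision is limited by the number of arrays.

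Of 28815 probe sets, 21780 had exactly 1 gene symbol in the platform annotation, 1605 had several and 5430 none. The gene identifiers of 21689 were in the RefSeq table (GRCm38.p6), which changed 0 symbols. The test took probe sets with 1 symbol whose mean reached the 25th percentile, log2 5.89, which left 16335 for 14880 genes. Limma 3.58.1 in R 4.3.3 fitted a mean per group to all 9 arrays (6 residual degrees of freedom), two-sided, with Benjamini-Hochberg adjustment over all probe sets tested. Each listed gene was read from its brightest probe set by mean. Across 38 lists there were 714 genes, 655 on the array and 634 tested. The code was tested on simulated data.

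The members and lists were chosen with earlier results of these data known. Named were up to 10 probe sets per direction with the smallest unadjusted p at 1.5-fold or more without overlap, up to 6 per direction with the smallest block p at 1.3-fold or more with one sign in all pairs, members of the immediate early, projection neuron and dopamine lists, up to 4 of every other list, and a set of marker genes.

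Deviations from group means had correlations across probe sets of 0.157 to 0.673 in the 9 same-numbered pairs of arrays and of -0.609 to 0.184 in the 18 others. Between chronic and control arrays alone they were 0.157 to 0.546 with the same number and -0.442 to 0.184 with different numbers. Chronic 2 correlated no less with control 3 (0.184) than with control 2 (0.157), so these values do not single out pair 2. The numbers were taken to pair the samples on these values, since no label states a pairing. A replicate block (4 residual degrees of freedom) was fitted as an alternative. Compared at every digit deposited, at most 5.94% of probe sets held equal values on any pair of the 6 control and chronic arrays. Other alternatives changed the arrays fitted, the filter, the scaling, the moderation and covariates for neighbouring tissue.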

Additional observations from a re-analysis of the deposited data

Results flagged for a closer look

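Nr4a1 and Arc differed between the effects of the regimens, by the test of that difference in limma. The effect of chronic MPTP minus the effect of acute MPTP, in which the shared controls cancel, was 2.38 on the log2 scale for Nr4a1 (adjusted p = 0.00131 in limma) and 1.18 for Arc (adjusted p = 0.0288 in limma). All 3 chronic arrays lay above all 3 acute arrays for both genes. Regimen and time of sampling differ together between these groups and cannot be told apart.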

How the results depend on the processing

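Probe sets past the adjusted threshold numbered 0 in every alternative but 1. Without chronic 1 there were 2, Nr4a1 and Egr2, so leaving out 1 array gave 0 to 2. For both genes chronic 1 was the chronic array nearest to the controls. The count at an unadjusted p under 0.05, 900 as reported, was 2128 with the replicate block, 221 with cortex and thalamus covariates, 534 without the arrays high in cortex genes, 394 without those high in choroid plexus genes and 171 with control 2 as the only control (465 to 1286 leaving out 1 array). The 165 probe sets that were also at 1.5-fold became 49 with covariates, 85 without the arrays high in choroid plexus genes and 36 with control 2 only (80 to 365 leaving out 1 array). The replicate block moved no adjusted call. With control 2 only, a choice made after seeing the data in which that array is assumed to vary like the other groups, the medians were 0.10 for pan-striatal, 0.11 for indirect pathway and -0.045 for proteasome genes. The complex I median, -0.082, became -0.16 with control 2 only and -0.18 with covariates, and that of complexes II to V, -0.089, became -0.13 and -0.18.

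The indirect pathway median was 0.19 with the cortex-high arrays left out or without control 1 alone (0.19 to 0.46 leaving out 1 array). The cortex median turned to 0.022 without the arrays high in cortex genes (-0.84 to 0.022 leaving out 1 array). The thalamus median turned to 0.0098 with covariates, 0.00056 without the arrays high in choroid plexus genes and 0.029 with control 2 only (-0.66 to 0.00056 leaving out 1 array).

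Part of the count that follows was fixed in advance and is no measure of robustness. The replicate block, the fits without the acute arrays, the filters and the moderation leave a gene's difference of group means unchanged. Leaving out arrays cannot turn the direction of a gene whose groups do not overlap, and many genes were named for that. Of 113 genes, 99 never changed direction over the alternatives run, 18 for 102 genes and 17 for the other 11, which lay below the median filter. With covariates Jun (0.33), Nr4a2 (0.34), Btg2 (0.54), Penk (-0.0070), Slc6a3 (0.081), Nxph3 (0.12) and Gabbr2 (0.035) did. Without the arrays high in cortex genes Nr4a2 (0.25), Th (-0.25), Nxph3 (0.13) and Slc17a7 (0.026) did. Without those high in choroid plexus genes Jun (0.056), Btg2 (0.0089), Ddc (0.082) and Ttr (1.47) did. With control 2 only Jun (0.28), Btg2 (0.29), Scn4b (-0.026), Pdyn (-0.024), Th (-0.37), Nxph3 (0.048) and Ttr (0.032) did. Leaving out 1 array gave -0.21 to 0.23 for Fos, -0.23 to 0.056 for Jun, -0.85 to 0.25 for Nr4a2, -0.40 to 0.12 for Btg2, -0.25 to 0.50 for Th, -0.32 to 0.082 for Ddc, -0.57 to 0.13 for Nxph3, -1.75 to 0.026 for Slc17a7 and -1.71 to 1.47 for Ttr. The cause was not tested.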

Other observations

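Genes of the synapse included some that were higher and some that were lower on the chronic arrays. Among synaptic vesicle genes (25 tested, 9 above 0, median -0.11) the groups did not overlap for 5, 2 higher and 3 lower (2.88% and 3.67% of all probe sets). Syn2, a synapsin, was 11.40, 11.43 and 11.66 on the controls against 10.86, 11.31 and 10.92 on the chronic arrays (-0.47 ± 0.14), and Sv2a was 11.83, 11.96 and 11.97 against 11.66, 11.63 and 11.71 (-0.26 ± 0.08), opposite in sign to Sv2c. Syt6, another synaptotagmin, differed by 0.60 ± 0.17. Of 31 glutamate and GABA receptor genes (median -0.01) 6 were lower and 2 higher at an unadjusted p under 0.05 in limma (2.66% and 2.85% of all probe sets). With the replicate block 8 were lower and 2 higher (6.46% and 6.56%). Without overlap 4 were lower and 1 higher (3.67% and 2.88%). The presynaptic receptor Grm2 was 8.36, 7.85 and 9.17 against 6.87, 7.66 and 7.75 (-1.03 ± 0.36), but -0.19 in pair 2, and Grik1 differed by -0.39 ± 0.15.

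Among potassium channels (29 tested, 18 above 0, median 0.20) 3 were higher and 1 lower at an unadjusted p under 0.05 in limma (2.85% and 2.66% of all probe sets), and 9 and 4 with the replicate block (6.56% and 6.46%). Against control 2 alone the median was 0.06. Kcna4 differed by 0.60 ± 0.20, Kcnip2 by 0.54 ± 0.17 and Kcna1 by 0.32 ± 0.13, while Kcnj9, which forms G protein-gated channels, differed by -0.55 ± 0.18. Of 17 circadian genes 15 lay above 0 (median 0.05), but against control 2 alone 8 did (median -0.006). Per1, also a cAMP-responsive gene, was 9.31, 9.86 and 9.64 against 9.51, 10.59 and 10.25 (0.51 ± 0.27), higher in each pair but overlapping between groups. Of 16 glucocorticoid response genes 6 lay above 0 (median -0.05), with Zbtb16 at -0.60 ± 0.16. Hspa5, the main chaperone of the endoplasmic reticulum, differed by 0.15 ± 0.08, and the 20 genes of the unfolded protein response had a median of 0.01.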
